A study of Rattus norvegicus with 18 samples.

Results

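Messenger RNA of the club cell secretory protein Scgb1a1 and of the lung's foreign-compound enzymes was measured in rat lungs after warm ischemia and reperfusion. The genes were chosen by name, as Scgb1a1, the cytochrome P450 genes Cyp2f4, Cyp4b1, Cyp2e1, Cyp1a1 and Cyp1b1, the flavin-containing monooxygenase genes Fmo1 and Fmo2, and the aldehyde dehydrogenase gene Aldh1a1. The array annotation gave a probe set to 8 of these 9 genes, of 10411 genes that it named with a single symbol. No probe set carried the symbol Fmo2, which is named here without a value. Each of the 8 genes had 1 probe set, and all 8 passed the filter on low signals, as did 7728 genes in all.

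Each array held RNA from a single lung of a male Sprague-Dawley rat, and 18 arrays were analysed. In the operated rats, which were anesthetized and ventilated through a tracheotomy, the left chest was opened and the left lung hilum was clamped for 2 h at body temperature. The left lungs were then reperfused and ventilated for 30 min (3 lungs) or 3 h (3 lungs). The unclamped right lungs were collected after the same 30 min (3 lungs) or 3 h (3 lungs), and 6 control lungs were taken immediately after anesthesia and sacrifice. The labels record no thoracotomy, clamping or period of ventilation for the controls, so each difference from control covers anesthesia time, ventilation and surgery as well as what the clamp did. Every clamped lung was a left lung and the side of the control lungs was not given, so clamping and side cannot be told apart. The age of the rats and the pairing of right with left lungs by animal were not given in the sources used here. The main tests treated every lung as independent, though a left and a right lung may have come from the same rat. The p-values measure the spread between these lungs.

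Club cells are secretory cells of the small airways, and Scgb1a1, a small secreted protein, is their defining product. In rodents they hold much of the lung's P450 activity, which makes them a target of inhaled and blood-borne chemicals that these enzymes turn into reactive products. P450 enzymes of family 1 are induced through the aryl hydrocarbon receptor (Ahr), whereas Cyp2f4, Cyp2e1 and Cyp4b1 are expressed constitutively in lung, and Fmo1 (amines and sulphides) and Aldh1a1 (aldehydes) act outside the P450 system.

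The promoters of the 4 genes whose level differed from control in any comparison are shown from RefSeq on the rat build GRCr8, each from 250 bases before the annotated start of transcription to 50 bases after it. Cyp2e1 lies on the plus strand at chr1:205269717-205270016, Cyp2f4 on the plus strand at chr1:91543518-91543817, Fmo1 on the minus strand at chr13:77747617-77747916 and Cyp1b1 on the plus strand at chr6:21094315-21094614. Capitals mark exact matches, on either strand, to the TATA box letters TATAAA, the CCAAT box (CCAAT, written ATTGG on the other strand) and the core of the xenobiotic response element bound by the aryl hydrocarbon receptor (GCGTG, or CACGC).
Cyp2e1: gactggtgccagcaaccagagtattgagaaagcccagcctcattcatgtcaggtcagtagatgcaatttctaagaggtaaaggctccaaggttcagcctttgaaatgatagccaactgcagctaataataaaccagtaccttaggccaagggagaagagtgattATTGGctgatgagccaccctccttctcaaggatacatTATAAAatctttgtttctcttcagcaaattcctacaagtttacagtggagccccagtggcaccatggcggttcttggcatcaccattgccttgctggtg
Cyp2f4: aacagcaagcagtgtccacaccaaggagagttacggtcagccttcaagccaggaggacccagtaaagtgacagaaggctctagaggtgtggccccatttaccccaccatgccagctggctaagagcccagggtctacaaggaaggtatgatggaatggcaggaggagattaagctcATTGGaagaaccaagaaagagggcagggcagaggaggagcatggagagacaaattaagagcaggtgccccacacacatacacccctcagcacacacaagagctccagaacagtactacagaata
Fmo1: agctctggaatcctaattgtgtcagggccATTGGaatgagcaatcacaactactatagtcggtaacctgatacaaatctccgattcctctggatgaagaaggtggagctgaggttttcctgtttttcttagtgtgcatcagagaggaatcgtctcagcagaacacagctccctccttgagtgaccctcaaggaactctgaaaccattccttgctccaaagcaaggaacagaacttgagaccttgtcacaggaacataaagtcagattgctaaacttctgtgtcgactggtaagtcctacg
Cyp1b1: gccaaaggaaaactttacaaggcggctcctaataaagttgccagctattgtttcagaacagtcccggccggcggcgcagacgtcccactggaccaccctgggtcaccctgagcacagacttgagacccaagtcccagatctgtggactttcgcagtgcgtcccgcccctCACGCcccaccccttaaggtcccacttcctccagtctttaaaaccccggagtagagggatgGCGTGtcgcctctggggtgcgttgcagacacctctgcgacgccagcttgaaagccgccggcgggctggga

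A RefSeq promoter entry was found for 8 of the 9 genes, Fmo2 included, and none for Cyp1a1, whose promoter was therefore not searched. The core GCGTG occurred in 2 of these 8 windows, in Cyp1b1 at 20 and 81 bases before the start and in Scgb1a1 at 29 bases before it, and in 29.7% of 33469 rat promoter windows of the same length. The CCAAT box occurred in 5 of the 8 windows, and in 37.5% of all windows. In Cyp2f4 it lay 74 bases, in Cyp2e1 86 bases and in Fmo1 221 bases before the start. TATAAA was found in Cyp2e1 and Scgb1a1, against 14.2% of all windows. Of the other motifs searched on both strands, TGTTTNC, a forkhead (FOXA) motif, was found in Cyp4b1 and in 21.1% of all windows. GTTAAT, a partial HNF1 site, was found in 0 of the 8 and in 7.45% of all windows. No motif searched contains another, and a match of letters is a description of the window and shows no binding.

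The arrays were alike in scale, since the authors had set each to a trimmed mean signal of about 500, and the median signal per array lay between 232.3 and 283.8. Genes that define lung tissue were high in all 18 lungs. The summed signal of 7 such genes, among them surfactant protein C (Sftpc), was 53920 to 68590 in left lungs at 30 min, 46750 to 58720 in left lungs at 3 h, 54920 to 60940 in right lungs at 30 min, 62740 to 74300 in right lungs at 3 h and 58790 to 63310 in controls. On 3 arrays (left 30 min replicates 1 and 3 and right 30 min replicate 3) the signal from the 3′ end of the actin transcript was 2.304 to 4.807 times that from its 5′ end, against 1.309 to 1.781 on the other 15 arrays, which is the usual array sign of shortened RNA or incomplete labelling. The sum of 8 neutrophil markers was 6974 to 17420 in left lungs at 30 min, 8334 to 21620 in left lungs at 3 h, 6811 to 12640 in right lungs at 30 min and 8355 to 18730 in right lungs at 3 h, against 2635 to 4497 in controls, with no overlap between any operated group and the controls. Of the 6 that were tested, limma called 3 higher in each operated group (S100a8, S100a9 and Mmp8), against 5.93 to 13.5% of all genes. The other 3 (Cxcr2, Mmp9 and Lcn2) were not called in any group. Lcn2 was below control at 30 min on both sides, at −0.67 in left lungs and −0.65 in right lungs. Sums for several other cell types also left the control range without overlap. The 9 alveolar type II markers summed to 39720 to 54510 in left lungs at 3 h and 55130 to 58490 in right lungs at 30 min, against 60590 to 65350 in controls. The 8 alveolar type I markers summed to 29020 to 30940 in right lungs at 30 min and 35550 to 37200 in controls. The 8 endothelial markers summed to 20430 to 24370 in left lungs at 3 h and 23340 to 24840 in right lungs at 3 h, against 25820 to 30470 in controls, and the 10 fibroblast and pericyte markers to 20810 to 22050 in left lungs at 3 h and 22680 to 24560 in controls. The endothelial markers did not all move alike. In the limma test described below, right lungs at 3 h had 1 of the 8 higher (Cldn5) and 2 lower (Kdr and Tie1). Of all genes, 7.75% were higher and 12.6% lower there. Left lungs at 3 h had 0 higher and 2 lower (Kdr and Ramp2), against 13.5% and 24.1% of all genes. The 5 erythroid markers were higher in right lungs at 30 min, at 18640 to 27980, against 12940 to 17760 in controls. The 11 cardiac muscle markers summed to 402.3 to 605.8 in left lungs and 2648 to 12660 in right lungs at 3 h. Both groups overlapped the controls (446.5 to 4267) but not each other. Of 6 liver genes, 5 were too dim to be tested, among them albumin (Alb) at 50 to 154 and apolipoprotein A1 (Apoa1) at 3 to 18 over all arrays, while Serpina1 read 223 to 536. In whole lung, fewer cells of a type and less RNA per cell cannot be told apart, and the part that these shifts in cell content or RNA quality have in the results that follow was not tested unless a value is given.

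Differences were tested with limma on log2(signal + 25) over all 18 arrays and adjusted over every tested probe set (Benjamini-Hochberg, two-sided), and a gene was called at an adjusted p under 0.05. Fold changes are on that same scale, which understates changes of dim probe sets. Against control, Cyp2e1 was lower in left lungs at 30 min and 3 h and in right lungs at 30 min, Fmo1 was lower in both lungs at 3 h, Cyp2f4 was lower in left lungs at 3 h, and Cyp1b1 was higher in both lungs at 3 h. Scgb1a1, Cyp4b1, Aldh1a1 and Cyp1a1 were not called in any group.

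These calls have to be read against a large general change. Left lungs at 3 h had 4 calls among the 8 genes, 1 higher and 3 lower (50%), against 37.6% of all 7728 genes tested (13.5% higher and 24.1% lower). Left lungs at 30 min had 1 call of 8, lower (12.5%), against 18.2% of all genes (8.64% higher and 9.52% lower). Right lungs at 30 min also had 1 call, lower, against 12.3% of all genes (5.93% higher and 6.33% lower), and right lungs at 3 h had 2 of 8, 1 higher and 1 lower (25%), against 20.4% (7.75% higher and 12.6% lower). The share called was thus near that of the array as a whole in each comparison. The median log2 difference of the 8 genes was 0.01 in left lungs at 30 min, −0.26 in left lungs at 3 h, −0.10 in right lungs at 30 min and 0.02 in right lungs at 3 h, beside all-gene medians of −0.06 in left lungs at 30 min, −0.13 in left lungs at 3 h, −0.04 in right lungs at 30 min and −0.05 in right lungs at 3 h. Centring every array at its own median, which removes the general shift of −0.13 in left lungs at 3 h, gave 2 higher and 3 lower genes there, against 19.5% of all genes higher and 12.4% lower, and 1 higher and 1 lower in left lungs at 30 min, against 11% higher and 5.58% lower. The general balance of calls thus turned with the scaling. Of all called probe sets, 62.2% were higher with centring and 43.6% without it in left lungs at 30 min, 60.8% and 36.6% in left lungs at 3 h, 57% and 45.4% in right lungs at 30 min, and 55.9% and 38.5% in right lungs at 3 h. In left lungs at 3 h, 3977 probe sets were called, and 2299 without left 3 h replicate 1. Signals that did not overlap those of the controls were also common. This held for 1 of the 8 genes in left lungs at 30 min, against 26.4% of all genes, and for 5 of 8 in left lungs at 3 h, against 36.8%. It held for 1 of 8 in right lungs at 30 min, against 20.7%, and for 2 of 8 in right lungs at 3 h, against 25.3%.

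**Figure D1:**
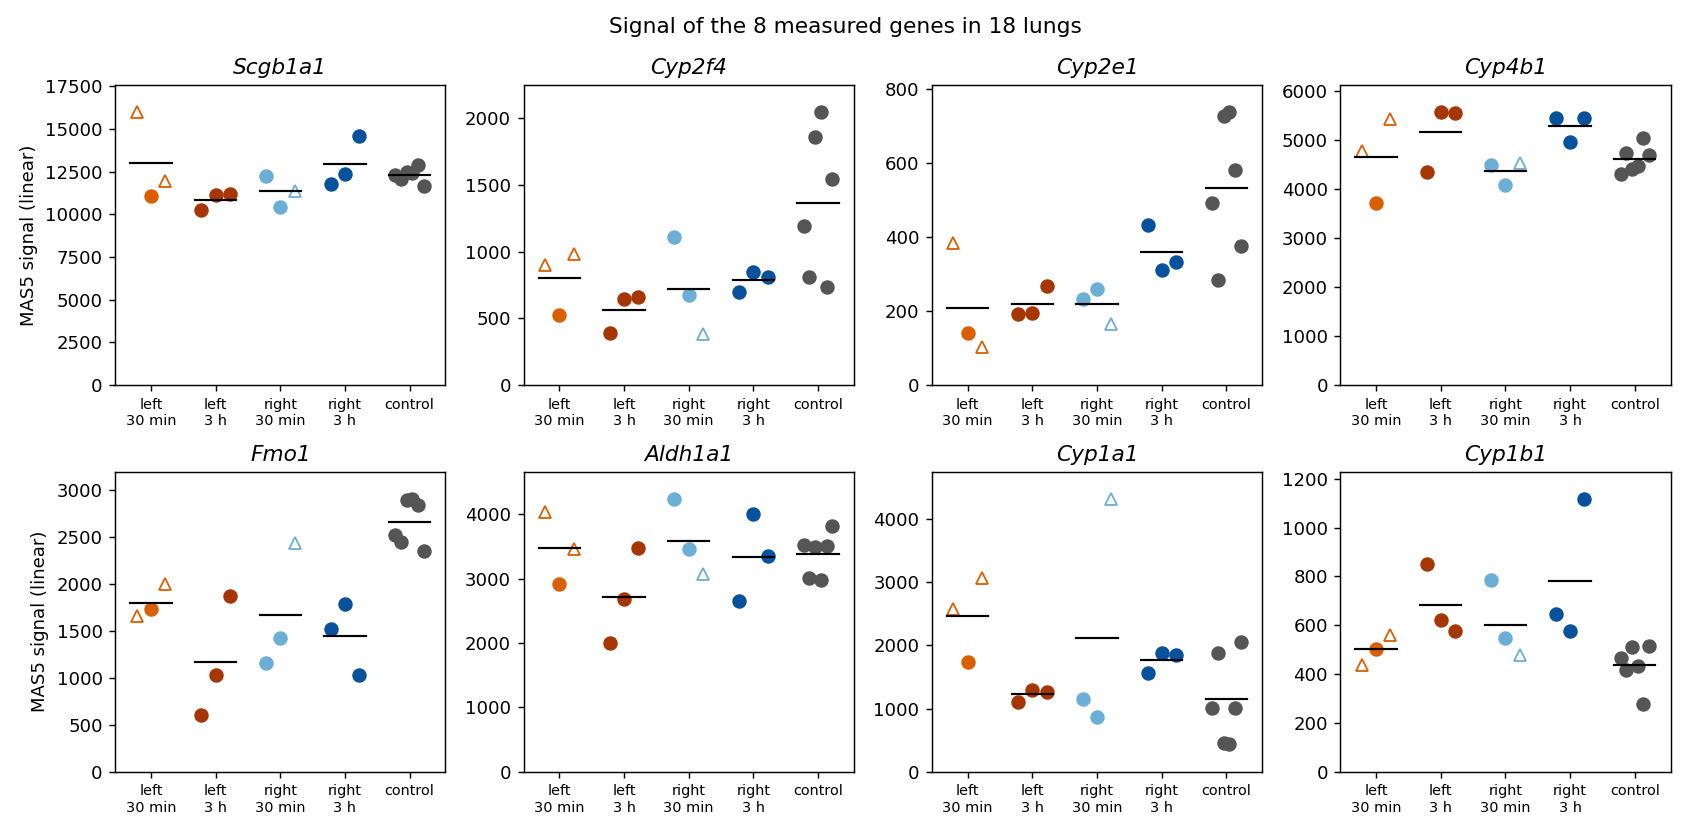
Each panel plots the linear MAS5 signal of 1 gene (vertical axis, starting at 0) in the 18 lungs, with left lungs at 30 min and 3 h, right lungs at 30 min and 3 h, and controls from left to right; bars are group means, and open triangles are the 3 arrays with an actin 3′/5′ ratio over 2. Fmo1 lies below all 6 controls in 11 of 12 operated lungs, while Scgb1a1 stays between 10234 and 15991 in all 18 lungs.

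Scgb1a1 was among the brightest genes on the array, at 69.0 to 100% of the highest signal of each array. Its signal was 15991, 11051 and 11985 in the left lungs at 30 min, 10234, 11152 and 11214 in the left lungs at 3 h, 12250, 10453 and 11396 in the right lungs at 30 min and 11801, 12357 and 14626 in the right lungs at 3 h, against 11649 to 12888 (median 12365) in the 6 controls. The left lungs at 3 h all lay below every control, and the other operated groups overlapped the controls. None of its differences was called. In left lungs at 3 h the log2 difference was −0.18 ± 0.11 (SE, 3 against 6 lungs, limma adjusted p = 0.22), with a 95% interval of −0.42 to 0.06, and in right lungs at 3 h it was 0.07 ± 0.11 (adjusted p = 0.72, interval −0.17 to 0.30).

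The other club cell markers were few on this array. Of 13 club and airway secretory genes listed, 7 were on the array and 3 were tested, namely Scgb1a1, Cyp2f4 and the tight-junction gene Cldn10. The summed signal of the 7 was 11960 to 17280 in left lungs at 30 min, 11030 to 12470 in left lungs at 3 h, 11720 to 13820 in right lungs at 30 min and 13520 to 15870 in right lungs at 3 h, against 13420 to 15220 in controls, and most of it came from Scgb1a1. The left lungs at 3 h were below all controls. Cldn10 was not called in any group (left 3 h −0.78 ± 0.32, adjusted p = 0.062). Among genes of the neighbouring ciliated cells, limma called 0 of 6 tested in any comparison with control, with at most 1 at an unadjusted p under 0.05. The share of all genes called in these comparisons, at an adjusted p under 0.05, was 12.3 to 37.6%. That share is a background for the 0 calls and not for the unadjusted count.

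Cyp2f4, the rat orthologue of the mouse naphthalene-activating P450 Cyp2f2, was lower in left lungs at 3 h. Its signal was 898, 522 and 985 in the left lungs at 30 min, 390, 643 and 661 in the left lungs at 3 h, 1108, 673 and 384 in the right lungs at 30 min and 700, 845 and 808 in the right lungs at 3 h, against 736 to 2047 (median 1370) in controls. Of the 12 operated lungs, 7 lay below every control, among them all 3 left lungs at 3 h, and 0 lay above. The mean was 565 ± 152 in left lungs at 3 h (SD, n = 3) and 1366 ± 543 in controls (SD, n = 6), a log2 difference of −1.17 ± 0.34 or 2.26-fold (limma adjusted p = 0.011). The call was lost without left 3 h replicate 1, where the difference was −0.94 (adjusted p = 0.087). Differences in the other groups were not called, at −0.70 ± 0.34 in left lungs at 30 min (adjusted p = 0.15), −0.92 ± 0.34 in right lungs at 30 min (0.079) and −0.69 ± 0.34 in right lungs at 3 h (0.16). The difference in right lungs at 30 min became a call without right replicate 1 (−1.28) or control replicate 5 (−1.07), with an adjusted p as low as 0.037. With the replicate number as a block, that in left lungs at 30 min became a call (−0.64, adjusted p just under 0.05).

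Cyp2e1, the ethanol-inducible P450 that also oxidises small solvents, was the dimmest of the 8 genes, at 104 to 738, and was lower in 3 of the 4 operated groups. Its signal was 383, 142 and 104 in the left lungs at 30 min, 193, 194 and 269 in the left lungs at 3 h, 233, 260 and 165 in the right lungs at 30 min and 432, 312 and 332 in the right lungs at 3 h, against 285 to 738 (median 538) in controls. All left lungs at 3 h and all right lungs at 30 min were below every control, while left 30 min replicate 1, an array with a raised actin ratio, and the 3 right lungs at 3 h were within the control range.

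The log2 difference of Cyp2e1 from control was −1.36 ± 0.32 in left lungs at 30 min (2.57-fold, limma adjusted p = 0.006), −1.14 ± 0.32 in left lungs at 3 h (2.20-fold, 0.0094) and −1.14 ± 0.32 in right lungs at 30 min (2.21-fold, 0.024). In right lungs at 3 h it was −0.48 ± 0.32 and not called (adjusted p = 0.30). Each of the 3 calls rested on few lungs. The first was lost without left 30 min replicate 3 (−1.03, adjusted p = 0.050), the second without left 3 h replicate 1 (−1.06, 0.051), and the third without right 30 min replicate 1 (−1.19, 0.061) or replicate 3 (−0.97, 0.098). With the replicate number as a block, the calls at 30 min were lost in left lungs (−1.26, adjusted p = 0.085) and in right lungs (−1.04, 0.17). With the 3 arrays of raised actin ratio left out, all 3 calls remained, at −1.67 in left lungs at 30 min (adjusted p = 0.022, 1 lung left, assumed to vary like the other groups), −1.14 in left lungs at 3 h (0.0028) and −0.97 in right lungs at 30 min (0.042).

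Cyp4b1, a lung-enriched P450 that activates ipomeanol in rodents and rabbits, was bright and varied little. Its signal was 4780, 3718 and 5436 in the left lungs at 30 min, 4344, 5566 and 5548 in the left lungs at 3 h, 4483, 4081 and 4524 in the right lungs at 30 min and 5440, 4951 and 5442 in the right lungs at 3 h, against 4311 to 5049 (median 4582) in controls. Every group overlapped the controls. The log2 differences lay between −0.08 and 0.20 with a standard error of 0.12, and none was called. The widest 95% limit on the high side was 0.44, in right lungs at 3 h. After centring arrays at their median, Cyp4b1 was called higher in left lungs at 3 h (0.32, adjusted p = 0.044).

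Other phase I genes of the same families were mostly too dim to test. Cyp2a3, which like Cyp2f4 is known from rodent airway epithelium, had a mean signal of 449 ± 356 in left lungs at 30 min, 268 ± 99.9 in left lungs at 3 h, 890 ± 1023 in right lungs at 30 min and 790 ± 262 in right lungs at 3 h, against 826 ± 605 in controls (SD). The spread within groups was wide, with an SD above the mean in right lungs at 30 min, and no difference was called (left 3 h −1.23 ± 0.67, adjusted p = 0.16). The P450 reductase Por, which passes electrons to all of these P450 enzymes, was not called in any group, with a difference of 0.52 ± 0.20 in right lungs at 3 h (adjusted p = 0.072).

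Fmo1, an enzyme that oxidises nitrogen and sulphur atoms of drugs, had the clearest separation from the controls. Its signal was 1664, 1731 and 2002 in the left lungs at 30 min, 607, 1032 and 1869 in the left lungs at 3 h, 1155, 1428 and 2435 in the right lungs at 30 min and 1522, 1791 and 1033 in the right lungs at 3 h, against 2357 to 2906 (median 2686) in controls. Of the 12 operated lungs, 11 lay below every control. The exception, right 30 min replicate 3, was 1 of the 3 arrays with a raised actin ratio.

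The mean Fmo1 signal was 1170 ± 642 in left lungs at 3 h (SD, n = 3) and 2662 ± 247 in controls (SD, n = 6), a log2 difference of −1.31 ± 0.27 or 2.48-fold (limma adjusted p = 0.0013). This call was kept in every alternative run, with values of −1.71 to −0.92 when single lungs were left out (adjusted p up to 0.017) and −1.36 to −1.14 otherwise (up to 0.027). In right lungs at 3 h the mean was 1449 ± 384, a difference of −0.90 ± 0.27 or 1.86-fold (adjusted p = 0.024), and this call was lost without right 3 h replicate 3 (−0.68, adjusted p = 0.14) and with the replicate block (−0.88, 0.065). At 30 min neither side was called, although the left lungs did not overlap the controls. The difference was −0.56 ± 0.27 in left lungs (adjusted p = 0.15) and −0.73 ± 0.27 in right lungs (0.081). Both were called when only the compared groups were fitted (adjusted p = 0.003 in left lungs and 0.026 in right lungs). Without the 3 arrays of raised actin ratio the right lungs at 30 min were called (−1.03, adjusted p = 0.039), as they were without right 30 min replicate 3 alone (−1.03, 0.026).

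Aldh1a1, which oxidises retinal to retinoic acid and clears reactive aldehydes, was not called in any group. Its signal was 4037, 2920 and 3467 in the left lungs at 30 min, 2003, 2685 and 3469 in the left lungs at 3 h, 4237, 3455 and 3077 in the right lungs at 30 min and 2660, 4005 and 3347 in the right lungs at 3 h, against 2973 to 3811 (median 3492) in controls. Of the left lungs at 3 h, 2 lay below every control and 1 among them. The difference there was −0.34 ± 0.17 (limma adjusted p = 0.12, 95% interval −0.70 to 0.01). It was called after quantile normalization (−0.49, adjusted p = 0.028) and without left 3 h replicate 3 (−0.53, 0.024). In the other groups the difference was between −0.03 and 0.08.

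**Figure D2:**
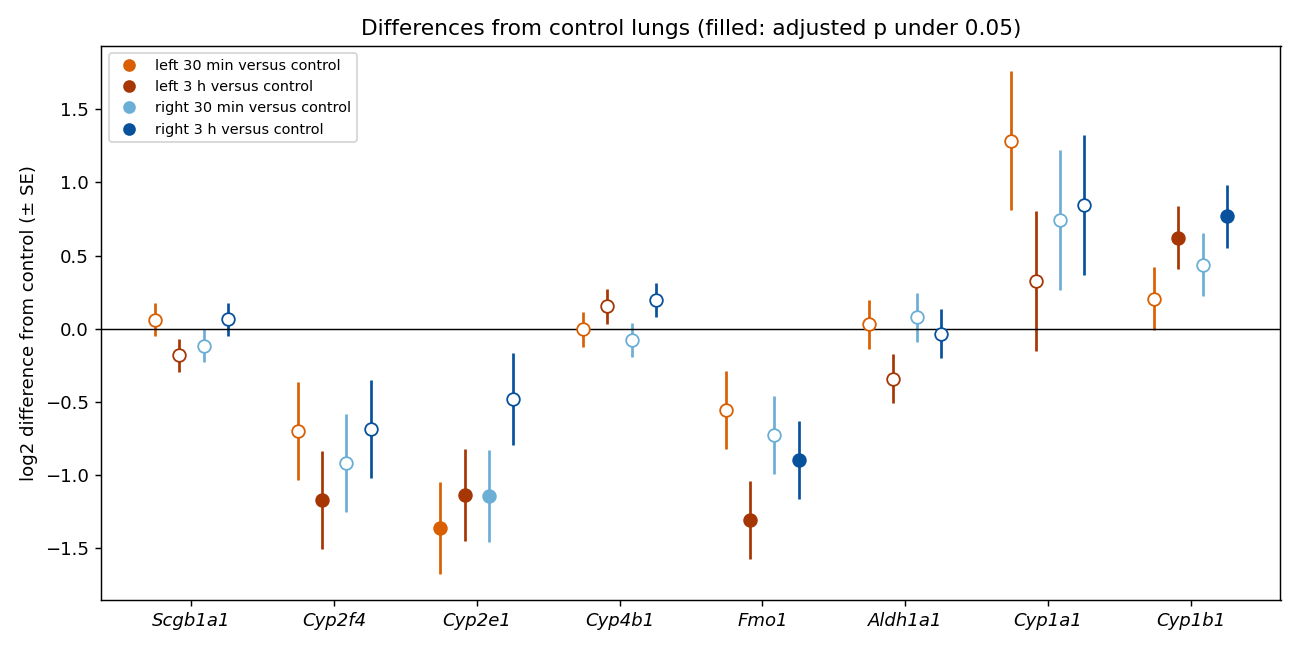
Log2 differences from control (vertical axis, points ± SE from limma) for the 8 genes, each with left 30 min, left 3 h, right 30 min and right 3 h from left to right; filled points had an adjusted p under 0.05. Cyp2e1 reaches −1.36, Fmo1 −1.31 and Cyp2f4 −1.17, while Cyp1b1 reaches 0.77 and Scgb1a1, Cyp4b1 and Aldh1a1 lie within 0.35 of 0.

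Cyp1b1, an Ahr-inducible P450 found in mesenchymal and endothelial cells as well as epithelium, was the only one of the 8 genes called higher. Its signal was 438, 505 and 561 in the left lungs at 30 min, 852, 621 and 579 in the left lungs at 3 h, 784, 547 and 478 in the right lungs at 30 min and 647, 577 and 1118 in the right lungs at 3 h, against 277 to 515 (median 451) in controls. All 6 lungs at 3 h, left and right, lay above every control, as did 3 of the 6 at 30 min. The mean was 684 ± 147 in left lungs at 3 h (SD, n = 3) and 437 ± 87.8 in controls (SD, n = 6), a log2 difference of 0.62 ± 0.22 or 1.54-fold (limma adjusted p = 0.031). The mean in right lungs at 3 h was 780 ± 294, a difference of 0.77 ± 0.22 or 1.70-fold (adjusted p = 0.018). At 30 min it was 0.21 ± 0.22 in left lungs (adjusted p = 0.53) and 0.44 ± 0.22 in right lungs (0.19).

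Both Cyp1b1 calls depended on single lungs. The left call was lost without left 3 h replicate 1 (0.46, adjusted p = 0.19), left 3 h replicate 2 (0.68, 0.053) or control replicate 5 (0.50, 0.057). The right call was lost without right 3 h replicate 3, which carried the highest value of the 18 lungs (0.49, adjusted p = 0.14). With the replicate block neither was called (left 0.51, adjusted p = 0.082, and right 0.66, 0.078).

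Cyp1a1, the classic Ahr target that is nearly silent in most tissues without an inducer, was well above the array median in every lung and varied most. Its signal was 2574, 1740 and 3063 in the left lungs at 30 min, 1108, 1295 and 1266 in the left lungs at 3 h, 1158, 870 and 4313 in the right lungs at 30 min and 1567, 1878 and 1849 in the right lungs at 3 h, against 441 to 2058 (median 1015) in controls. Among the controls alone it spanned 2.22 log2 units. None of the 12 operated lungs lay below the control range, and 3 lay above it.

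The difference of Cyp1a1 from control was 1.29 ± 0.48 in left lungs at 30 min (limma adjusted p = 0.065), 0.33 ± 0.48 in left lungs at 3 h (0.62), 0.74 ± 0.48 in right lungs at 30 min (0.32) and 0.85 ± 0.48 in right lungs at 3 h (0.22), so none was called. The 95% interval in left lungs at 30 min was 0.28 to 2.29. That difference passed the threshold with arrays centred on their median (1.37, adjusted p = 0.048), without control replicate 2 (1.47, 0.040) and without control replicate 6 (1.50, 0.035). The 3 arrays of highest Cyp1a1 signal, at 4313, 3063 and 2574, were the 3 arrays with an actin 3′/5′ ratio over 2. Without those arrays the difference was 0.83 in left lungs at 30 min (adjusted p = 0.45, 1 lung left) and 0.05 in right lungs at 30 min (0.96).

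The control lungs differed among themselves in several of these enzymes. In rising order of Cyp1a1 (control replicates 4, 3, 1, 5, 2 and 6, at 441, 452, 1015, 1016, 1884 and 2058), Cyp2e1 stood at 738, 728, 493, 582, 285 and 376. The 2 controls with the highest Cyp1a1 thus had the lowest Cyp2e1, and the 2 with the lowest Cyp1a1 had the highest. Fmo1 in the same order was 2906, 2895, 2526, 2845, 2444 and 2357, a range of 0.30 log2 units with the same opposite order at both ends. Cyp2f4 was 2047, 1862, 1194, 736, 813 and 1546, with its highest values in the same 2 lungs of low Cyp1a1 but a high value in replicate 6 too. Control replicates 3 and 4 also deviated together over the whole array, with a correlation of 0.315 between their deviations from the control mean over 10533 probe sets, against 0.0229 for the next highest pair. This is a description of 6 lungs, and the order was noticed in these values.

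**Figure D3:**
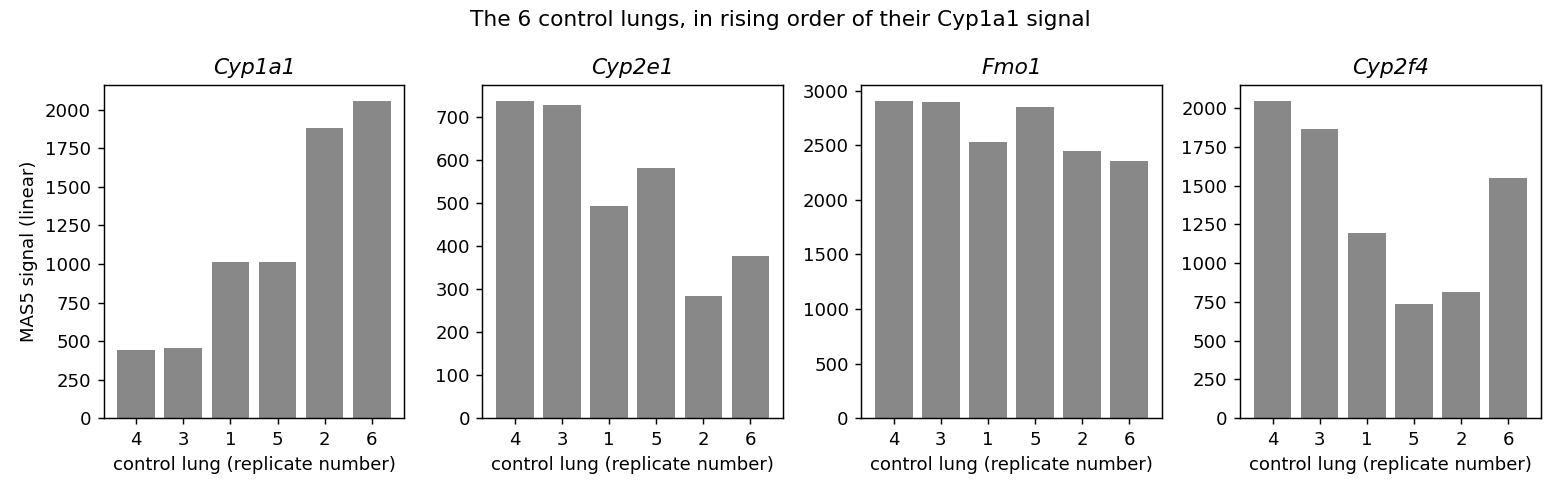
Linear signal (vertical axes from 0) of Cyp1a1, Cyp2e1, Fmo1 and Cyp2f4 in the 6 control lungs, which keep the rising order of Cyp1a1 in every panel. Cyp2e1 is highest (738 and 728) in the 2 lungs with the lowest Cyp1a1 and lowest (285 and 376) in the 2 with the highest.

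Left and right lungs were compared at the same time to ask what the clamped side showed beyond the unclamped one. At 30 min limma called 0 of the 8 genes, against 0.0518% of all genes, and at 3 h 0 of 8, against 2.37%, and 0 of the 8 had an unadjusted p under 0.05 at either time. At 3 h the left and right groups did not overlap for 4 of the 8 genes, all lower in left lungs, against 17.1% of all genes, and none of the 4 had an unadjusted p under 0.05. These were Cyp2e1 (193, 194 and 269 in left lungs, 432, 312 and 332 in right lungs), Cyp2f4 (390, 643 and 661 in left, 700, 845 and 808 in right), Cyp1a1 (1108, 1295 and 1266 in left, 1567, 1878 and 1849 in right) and Scgb1a1 (10234, 11152 and 11214 in left, 11801, 12357 and 14626 in right). Their log2 differences, left minus right, were −0.66 ± 0.36 for Cyp2e1 (limma adjusted p = 0.36), −0.49 ± 0.39 for Cyp2f4 (0.54), −0.52 ± 0.55 for Cyp1a1 (0.65) and −0.25 ± 0.13 for Scgb1a1 (0.34). The 95% interval for Cyp2e1 was −1.42 to 0.11, which takes in 0 as well as a difference as large as that of left lungs from control (−1.14). For Fmo1, the difference at 3 h was −0.41 ± 0.31 with an interval of −1.06 to 0.24.

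Between the times, 0 of 8 genes were called in left lungs, against 3.07% of all genes, and 0 of 8 in right lungs, against 0.194%. Fmo1 in left lungs had the lowest p, with a difference of −0.75 ± 0.31, 3 h minus 30 min (limma unadjusted p = 0.0261, adjusted p = 0.17). It was called without left 3 h replicate 3 (−1.15, adjusted p = 0.023). Of the 32 left-right and time comparisons of these genes, that was the only one with an unadjusted p under 0.05. The times did not overlap for 2 of the 8 genes in left lungs, against 22.2% of all genes, and for 2 of 8 in right lungs, against 12.5%. Cyp1a1 in left lungs was 1108 to 1295 at 3 h and 1740 to 3063 at 30 min without overlap, a difference of −0.96 ± 0.55 (adjusted p = 0.32). Cyp1b1 in left lungs was 579 to 852 at 3 h and 438 to 561 at 30 min, again without overlap, at 0.42 ± 0.25 (adjusted p = 0.34). In right lungs Cyp2e1 was 312 to 432 at 3 h and 165 to 260 at 30 min, at 0.66 ± 0.36 (adjusted p = 0.44), and Cyp4b1 was 4951 to 5442 at 3 h and 4081 to 4524 at 30 min, at 0.27 ± 0.14 (adjusted p = 0.39).

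The genes most like each enzyme over the 18 arrays were found by Pearson correlation of log2(signal + 25), which takes in differences between groups and between arrays alike and is given as a description. Fmo1 had the closest neighbours, Spata6 (r = 0.971), Retreg2 (0.958) and Ptp4a3 (0.946). For Cyp1b1 the nearest were Gclc, the catalytic subunit of the enzyme that limits glutathione synthesis (0.858), the endotoxin co-receptor Cd14 (0.841) and Pabpc4 (0.835). Cyp2e1 was nearest to Pla2g15 (0.85), Fkbp14 (0.821) and Cab39 (0.818), and Cyp2f4 to Pierce2 (0.865), Ube2d1 (0.816) and Rgma (0.813). Scgb1a1 was nearest to Epas1 (0.851), Mrpl38 (0.84) and Prmt2 (0.817), Aldh1a1 to Klhl7 (0.831), Gpr155 (0.823) and Cfap161 (0.82), Cyp1a1 to Wdr41 (0.769), Armc5 (0.758) and Rai14 (0.749), and Cyp4b1 to Slc25a38 (0.769), the chitinase Chia (0.696) and Wsb2 (0.672). The 8 genes themselves were left out of this search by rule.

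Among the wider set of phase I enzymes, which add or expose a reactive group, 13 of 32 tested genes were called lower in left lungs at 3 h, 2 higher and 17 neither. Of 76 such genes listed, 58 were on the array. Between left and right lungs limma called 0 of the 32 at 30 min and 0 at 3 h. Between the times it called 0 on either side. At 3 h, against the 0 called, 2.37% of all genes were called at an adjusted p under 0.05. There 7 of the 32 had an unadjusted p under 0.05 between left and right lungs. No share of all genes at an unadjusted p is given here, so the 7 have no matching background. Against control, 1 was higher and 3 lower in left lungs at 30 min (12.5%, against 18.2% of all genes). In left lungs at 3 h 2 were higher and 13 lower (46.9%, against 37.6%). In right lungs 1 was higher and 3 lower at 30 min (12.5%, against 12.3%), and 2 were higher and 3 lower at 3 h (15.6%, against 20.4%). Their median log2 difference was −0.17 in left lungs at 30 min, −0.40 in left lungs at 3 h, −0.09 in right lungs at 30 min and 0.04 in right lungs at 3 h. The background for the 13 lower genes is the 24.1% of all genes called lower in left lungs at 3 h. The count there depended on the scaling and on 1 lung. It was 2 higher and 6 lower with arrays centred on their median, when 19.5% of all genes were higher and 12.4% lower, and 1 higher and 4 lower without left 3 h replicate 1, when 8.67% were higher and 12.5% lower.

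A pair of phase I genes changed in opposite directions in all 4 operated groups. Monoamine oxidase A (Maoa) averaged 557 ± 125 in left lungs at 30 min, 607 ± 94.5 in left lungs at 3 h, 556 ± 76.3 in right lungs at 30 min and 516 ± 19.1 in right lungs at 3 h, against 1285 ± 128 in controls (SD), and was 2.08 to 2.41-fold lower (limma adjusted p of 9.9e-06 to 4.1e-05). Xanthine dehydrogenase (Xdh), the precursor of the oxidase that releases superoxide, averaged 5348 ± 880 in left lungs at 30 min, 5123 ± 749 in left lungs at 3 h, 4543 ± 1360 in right lungs at 30 min and 5407 ± 1403 in right lungs at 3 h, against 2208 ± 317 in controls, and was 2.00 to 2.41-fold higher (adjusted p of 0.00019 to 0.0026). Both calls were kept in each group when single lungs were left out and when the arrays with a raised actin ratio were left out. In left lungs at 3 h the aldo-keto reductase Akr7a2 (1.69-fold, adjusted p = 0.0012), the formaldehyde-clearing dehydrogenase Adh5 (1.55-fold, 0.0016) and the microsomal epoxide hydrolase Ephx1 (1.69-fold, 0.004) were lower. Ephx1 missed the threshold without left 3 h replicate 1 (adjusted p = 0.051). Prostacyclin synthase (Ptgis) was 1.59-fold higher in right lungs at 3 h (adjusted p = 0.013), and without right 3 h replicate 1 or 3 it was not called.

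Of 48 phase II genes, which conjugate the products, 38 were on the array and 23 were tested. In left lungs 0 were higher and 5 lower at 30 min (21.7%), against 8.64% of all genes higher and 9.52% lower. At 3 h 0 were higher and 5 lower (21.7%), against 13.5% of all genes higher and 24.1% lower. In right lungs limma called 0 at 30 min, against 12.3% of all genes called. There 6 of the 23 had an unadjusted p under 0.05, for which no share of all genes is given here. At 3 h 3 were higher and 0 lower (13%), against 7.75% of all genes higher and 12.6% lower. The median log2 difference of the 23 was −0.22 and −0.31 in left lungs at 30 min and 3 h, and −0.19 and 0.00 in right lungs. The medians of all genes were −0.06 and −0.13 in left lungs at 30 min and 3 h, and −0.04 and −0.05 in right lungs.

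The 5 phase II genes lower in left lungs at 30 min were Mgst3 (1.48-fold, limma adjusted p = 0.0053), Mgst1 (1.43-fold, 0.012), Gstp1 (1.46-fold, 0.015) and Gsto1 (1.35-fold, 0.021), which are glutathione transferases, and the methyltransferase Inmt (1.55-fold, 0.019). None of these 5 was called without the 3 arrays of raised actin ratio, which left a single lung in that group, or with the log2 actin ratio as a covariate. The 5 lower in left lungs at 3 h were the glutathione transferases Mgst3 (1.47-fold, 0.0031), Gstk1 (1.47-fold, 0.0059), Gstm1 (1.46-fold, 0.027), Gstm2 (1.38-fold, 0.033) and Gstt3 (1.47-fold, 0.049). The calls of Gstm1, Gstm2 and Gstt3 were lost with arrays centred on their median and without left 3 h replicate 1. In right lungs at 3 h the quinone reductase Nqo1 (1.39-fold, 0.024), Gsta1 (1.70-fold, 0.034) and Inmt (1.43-fold, 0.048) were higher, and without right 3 h replicate 3 none of the 3 was called.

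**Figure D4:**
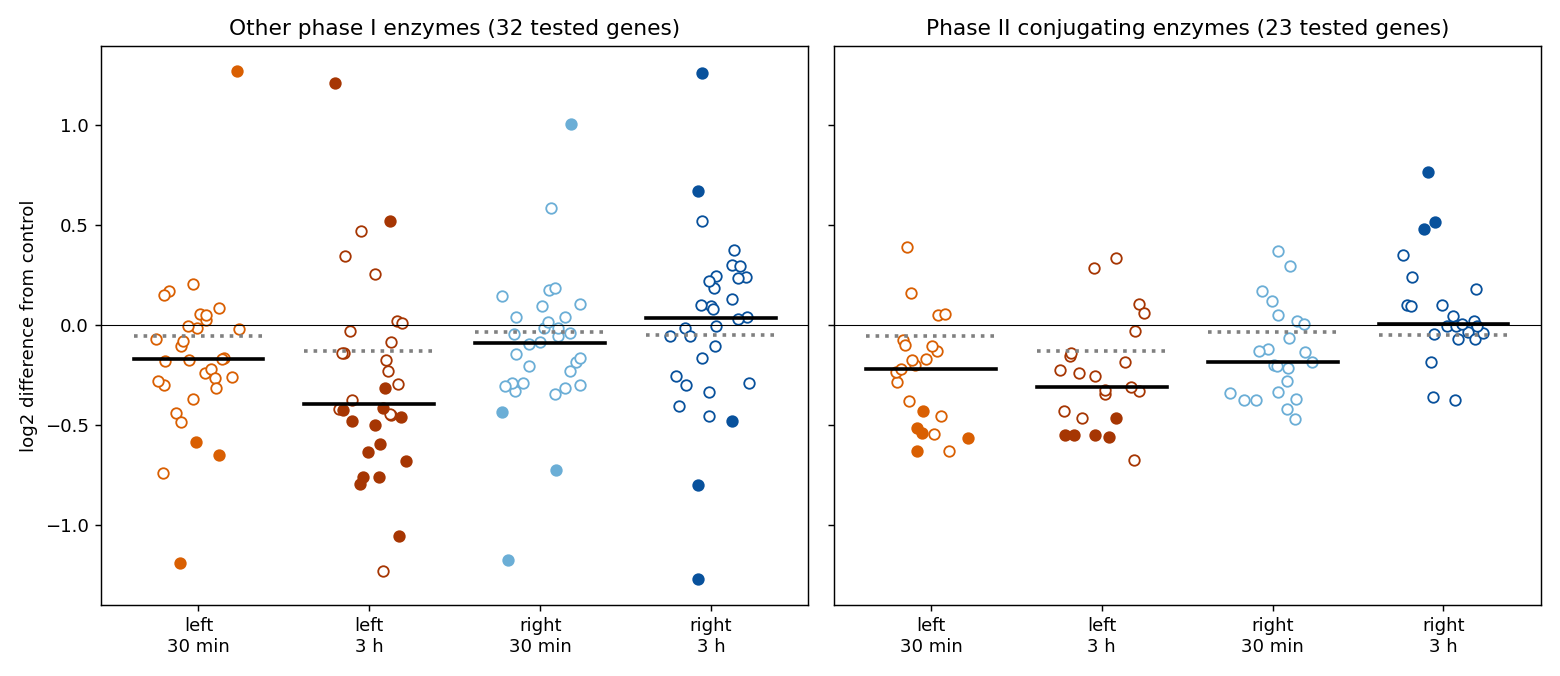
Log2 differences from control (vertical axis) of the 32 tested phase I genes other than the 8 and of the 23 tested phase II genes, with left 30 min, left 3 h, right 30 min and right 3 h from left to right; each point is a gene, filled points had an adjusted p under 0.05, black bars are list medians and dotted bars medians of all genes. Of the phase I genes, 13 were lower and 2 higher in left lungs at 3 h.

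The receptor pathway that drives Cyp1a1 and Cyp1b1 was covered by 6 tested genes of 12 listed. Left lungs at 30 min had 1 higher and 2 lower (50%, against 18.2% of all genes). Left lungs at 3 h had 2 higher and 1 lower (50%, against 37.6%). Right lungs had 0 called at 30 min, against 12.3%, and 1 higher and 2 lower at 3 h (50%, against 20.4%). The receptor Ahr averaged 131 ± 79.0 in left lungs at 30 min and 132 ± 32.1 in right lungs at 3 h, against 263 ± 58.7 in controls (SD), and was 2.04-fold lower (limma adjusted p = 0.02) and 1.83-fold lower (0.042) there. The first call was lost without left 30 min replicate 1 (−0.49, 0.16) and without the arrays of raised actin ratio (−0.53, 1 lung left), and the second without right 3 h replicate 2 (0.12) or 3 (0.15). Both of these low means lay under the filter level of 173.6, so the signal there was dim. Ahr was not called in left lungs at 3 h (184 ± 45.4, −0.46, limma adjusted p = 0.23). Nor was it called in right lungs at 30 min (136 ± 41.5, −0.84, 0.066). Tiparp, an Ahr target that also dampens the receptor, averaged 2445 ± 302 in left lungs at 30 min and 2175 ± 430 in left lungs at 3 h, against 1217 ± 237 in controls, and was 2.01-fold (adjusted p = 0.003) and 1.78-fold (0.0052) higher. Its 30 min call was kept when single lungs or the arrays of raised actin ratio were left out, and its 3 h call was lost without left 3 h replicate 1 (adjusted p = 0.05). Arnt2, a relative of the partner of Ahr, was lower in left lungs at 30 min (1.51-fold, 0.034), in left lungs at 3 h (1.80-fold, 0.0025) and in right lungs at 3 h (1.79-fold, 0.0053). Its call at 30 min was lost without left 30 min replicate 1 or 2 or control replicate 1, 5 or 6. Hsp90ab1, a chaperone that holds the receptor in the cytoplasm, was 1.34-fold higher in left lungs at 3 h than in controls (0.024), a call lost without any of the 3 left lungs. It was also 1.58-fold higher in left than in right lungs at 3 h, at 7576 ± 112 in left lungs and 4789 ± 183 in right lungs (0.04). Of the remaining tested genes, Nqo1 was called only in right lungs at 3 h, as given above, and Ptges3 in no group. Arnt, the partner of Ahr, was on the array but was not tested.

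Around Aldh1a1, 14 retinoid genes of 26 listed were tested. Left lungs at 30 min had 0 higher and 4 lower, left lungs at 3 h 1 higher and 6 lower, right lungs at 30 min 0 higher and 3 lower, and right lungs at 3 h 1 higher and 4 lower. The share called was 28.6% in left lungs at 30 min and 50% at 3 h, against 18.2% and 37.6% of all genes. In right lungs it was 21.4% at 30 min and 35.7% at 3 h, against 12.3% and 20.4%. The retinoic acid receptor gamma (Rarg) averaged 200 ± 15.3 in left lungs at 30 min, 154 ± 23.2 in left lungs at 3 h, 239 ± 34.8 in right lungs at 30 min and 165 ± 58.0 in right lungs at 3 h, against 508 ± 57.1 in controls (SD), and was 2.02 to 2.98-fold lower (limma adjusted p of 2.2e-06 to 0.00038). The retinoid X receptor gamma (Rxrg) and the retinal reductase Rdh11 were called lower in all 4 groups, Rxrg by 1.32 to 1.56-fold and Rdh11 by 1.33 to 1.57-fold. The Rxrg calls were lost in left lungs at 30 min without left replicate 1 or 2 and in right lungs at 3 h without right replicate 3, and the Rdh11 calls in right lungs were lost without replicate 1 at either time. The retinal reductase Dhrs3 was 1.90-fold lower in left lungs at 3 h (0.0015).

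Of 32 transcription factors of airway and xenobiotic genes, 13 were tested. Higher and lower counts were 2 and 3 in left lungs at 30 min, 3 and 4 in left lungs at 3 h, 1 and 1 in right lungs at 30 min and 1 and 3 in right lungs at 3 h. The share called was 38.5% in left lungs at 30 min and 53.8% at 3 h, against 18.2% and 37.6% of all genes. In right lungs it was 15.4% at 30 min and 30.8% at 3 h, against 12.3% and 20.4%. Nkx2-1, the lung epithelial factor that acts on the Scgb1a1 promoter, averaged 1168 ± 247 in left lungs at 30 min, 868 ± 273 in left lungs at 3 h, 1407 ± 298 in right lungs at 30 min and 1251 ± 287 in right lungs at 3 h, against 2185 ± 177 in controls (SD). It was 1.88-fold lower in left lungs at 30 min (limma adjusted p = 0.0036), 2.56-fold in left lungs at 3 h (7.7e-05), 1.56-fold in right lungs at 30 min (0.036) and 1.75-fold in right lungs at 3 h (0.0073). The call in right lungs at 30 min was lost when right 30 min replicate 1 or 2 or any of 5 of the 6 controls was left out. Nfix was lower in left lungs at 3 h (4.01-fold, 0.00056) and right lungs at 3 h (4.05-fold, 0.001). Cebpd, an acute-phase factor, was higher in all 4 groups, by 2.31 to 3.04-fold (0.0032 to 0.039), and its call in right lungs at 30 min, the highest of these p-values, was lost without right 30 min replicate 1 or 2 or without control replicate 1, 2, 5 or 6. Scgb1a1 itself was not called in any group.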

How the data were processed

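Lung RNA was hybridised to Affymetrix rat 230A arrays. Per the labels, the authors deposited MAS5 probe-set values, used as linear signal intensity, and GeneSpring 7.2 is named in the design text. No scanner files were used here. Of 15923 probe sets, 57 controls were set aside, and 12783 carried 1 gene symbol in the platform annotation, 312 several and 2771 none. Symbols were checked against RefSeq, and 0 changed. Probe sets above the 40th percentile (173.6) on at least 3 arrays were tested, 10533 in all for 7728 genes. Of several probe sets of a gene, the one of highest mean was kept.

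Values were taken as log2(signal + 25). limma 3.58.1 (R 4.3.3) fitted 5 group means over 18 arrays, with Benjamini-Hochberg adjustment over all tested probe sets. The code was tested on simulated data. Python 3.11.15 with pandas 2.3.3, numpy 2.4.6 and matplotlib 3.10.9 did the rest. Signal over background could not be judged without detection calls, and the number of arrays limits the precision.

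All 9 genes are named. From other lists up to 4 genes of smallest adjusted p in a comparison, or all where at most 5 were called, are named, plus relatives of the members and the 3 nearest genes by correlation. Hsp90ab1 in left against right lungs was named after its values were seen. The members and lists were chosen with earlier results of these data known. Same-numbered left and right lungs deviated together at 30 min (correlations 0.122, 0.307 and 0.146) but not at 3 h (-0.165, 0.0663 and -0.151). By the rule used, the numbers were therefore assumed to pair lungs at 30 min only. Differently numbered lungs reached correlations of 0.0994 at 30 min and 0.343 at 3 h, so the pairing by animal is not settled. The pairing comes from the data, not the labels. Alternatives changed the pseudocount (10 or 100), filter, scaling, actin-ratio arrays, variance model, samples fitted and replicate block.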

Additional observations from a re-analysis of the deposited data

Results flagged for a closer look

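Among the 8 genes, Cyp1b1 in control replicate 5 stood apart from its group. Its signal of 277 (276.94) was the lowest of the 6 controls, and the gap to the next control was 0.662 of the group's range on the log2 scale, above Dixon's critical value of 0.625 for 6 samples. Such a gap arises by chance in about 1 of 20 groups. The control groups of all 8 genes were searched, so finding 1 such gap is less unusual than in a single group. Without this lung, Cyp1b1 in left lungs at 3 h was 0.50 above the controls (limma adjusted p = 0.057) rather than 0.62 (0.031).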

How the results depend on the processing

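Each of the 8 called differences from control was refitted under every alternative, which gave 160 values. Of these, 145 kept the direction and the call, 15 kept the direction but lost the call and 0 changed sign. Among 1024 refits of differences that were not called, 14 became calls. The number of the 8 genes called in left lungs at 30 min, 1 as reported, was 2 with arrays centred on their median, 2 with only the compared groups fitted and 0 to 2 with single lungs left out. In right lungs at 30 min, also 1 as reported, it was 2 without the 3 arrays of raised actin ratio, 2 with only the compared groups fitted and 1 to 2 with single lungs left out. The count in right lungs at 3 h, 2 as reported, was 0 to 2 with single lungs left out, with 0 without right replicate 3. For left lungs at 3 h, 4 as reported, it was 3 to 5 under other settings and 1 to 5 with single lungs left out, with 1 without left replicate 1. Between 3 h and 30 min in left lungs it was 0 as reported and 0 to 1 with single lungs left out. The cause of these changes was not tested.

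With the replicate number as a block, which is no pairing by animal between operated and control lungs, the count was 0 in right lungs at 30 min, 0 in right lungs at 3 h, 1 in left lungs at 30 min (Cyp2f4 in place of Cyp2e1) and 3 in left lungs at 3 h. The block left 0 of the 8 genes called between left and right lungs at 30 min, where the numbers were only assumed to pair the lungs. It also left 0 at 3 h, where no such pairing was assumed. The phase I count in left lungs at 3 h, 15 as reported, was 8 with arrays centred on their median and 8 with the block. With 3 lungs a group and 1 probe set a gene, differences of 2 to 3 of the standard errors given were in part not called.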
